A study of Rattus norvegicus with 8 samples.

Results

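The interleukins and their receptors were described here in endothelial cells of the rat lung. The 69 genes were those whose symbol begins with Il and a digit, out of 15159 symbols to which probes of the array could be matched. The rule itself used no expression value, but it was set with earlier results of these data known. The 69 comprised 37 genes for secreted interleukins, antagonists and soluble binding proteins (called ligands from here on) and 32 genes for receptor chains. Cells came from Sprague-Dawley rats aged 8 to 10 weeks that had received saline or monocrotaline at 60 mg/kg under the skin, with 4 rats and 4 arrays in each group, and whole lungs were taken at day 5. Monocrotaline, an alkaloid of Crotalaria plants, becomes a reactive pyrrole in the liver, injures lung vessels and is used to induce pulmonary hypertension. Cells were caught from collagenase-digested lung on magnetic beads against CD31, and 10 ng of the RNA released straight from the beads, with no culture, was labelled with Cy3. CD31 is also carried by platelets and some leukocytes, so such a preparation can hold cells other than endothelium.

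Interleukins are secreted proteins through which leukocytes and tissue cells signal to one another. Most bind paired receptor chains that pass the signal to JAK kinases and STAT transcription factors, while the IL-1 and IL-17 families act through adaptor proteins and NF-κB. Chains such as the common gamma chain (Il2rg) and gp130 (Il6st) are shared by several cytokines, and soluble proteins such as Il1rn, Il18bp and Il22ra2 act as natural inhibitors. In the lung, endothelial cells are known to answer IL-1 by displaying adhesion molecules, and IL-33 is stored in the nuclei of endothelial and epithelial cells.

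Levels are given as scaled log2 signal, the log2 of the probe's processed intensity minus that array's 75th percentile, so that 0 is the level of the 75th percentile. Differences are given as log2 fold change of monocrotaline over saline with its standard error, from limma. A gene was called at a Benjamini-Hochberg adjusted p under 0.05 over the 19137 genes tested. Of these, 11443 had a symbol, and the others were accessions with no matched symbol, each counted as a gene. Shares and medians of all genes below cover both kinds. The signal of one probe cannot be set against that of another, because probes differ in affinity.

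On each array 70.8% to 77.7% of spots were well above background. All 13 measured endothelial markers were well above background on every array, Pecam1, the gene of CD31, at a mean of 5.39 after saline and 5.08 after monocrotaline. The endothelial markers had negative log2 fold changes in 13 of 13 cases (median -0.50), none of them called. T and NK cell markers had positive log2 fold changes in 20 of 20 tested genes (median 1.42), and 3 were called higher, beside 1.37% of all genes tested. The saline arrays lay in row 1 of the single slide and the monocrotaline arrays in row 2, so slide row and treatment cannot be told apart. The labels describe separate rats, and with 4 arrays a group the number of animals limits the precision of every value below. In bulk RNA such as this, fewer cells of a type and less RNA per cell cannot be told apart.

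Probes for 39 of the 69 genes were well above background on all 8 arrays, 12 on some arrays and 18 on none. For ligands these numbers were 18, 7 and 12 of 37, and for receptors 21, 5 and 6 of 32. The saline arrays showed 43, 42, 44 and 45 of the 69 genes above background, and the monocrotaline arrays 44, 45, 49 and 47. The 12 ligands not well above background on any array were Il2, Il3, Il4, Il9, Il12b, Il17c, Il17f, Il1f10, Il21, Il25, Il36a and Il36g. The corresponding receptors were Il12rb1, Il1rapl1, Il1rl2, Il20ra, Il22ra1 and Il5ra. Il22, a T cell product that acts on epithelium, was above background on 2 monocrotaline arrays and on no saline array, and Il5, the eosinophil growth factor, on 2 and 1. Il13 was above background on 1 monocrotaline array only, Il17rb and Il1rapl2 on 1 saline array only, and Il1rap, the accessory chain of the IL-1 receptor, on 1 array of each group, through different probes. No fold is given for Il22, Il13, Il17rb, Il1rapl2 and Il1rap, since a bound on it came out under 1. No probe could be matched to Il1r1, Il18rap or Il15ra, which are not analysed here.

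Requiring a signal well above background on at least 4 of the 8 arrays left 45 genes to test, 22 ligands and 23 receptors, and 24 were not tested. None of the 45 was called by limma, against 1.43% of all genes tested (1.37% higher and 0.0627% lower). At an unadjusted p under 0.05, 7 of the 45 (15.6%) differed, close to the 13.9% of all genes. In 4 of these, Il17a, Il2rb, Il7r and Il2ra, the monocrotaline mean was the higher one, and in 3, Il22ra2, Il17rd and Il3ra, the lower one. Il17a and Il2ra were well above background on 4 monocrotaline arrays but on only 2 saline arrays and met the filter through the former, so their place in these counts supports nothing. The values of the groups did not overlap in 3 of 45 genes (6.67%), against 8.55% of all genes, with Il17a and Il2rb higher after monocrotaline (background 4.56%) and Il22ra2 lower (background 3.99%). Both shares lay near the background, so they are no result about the interleukin genes as a set.

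**Figure D1:**
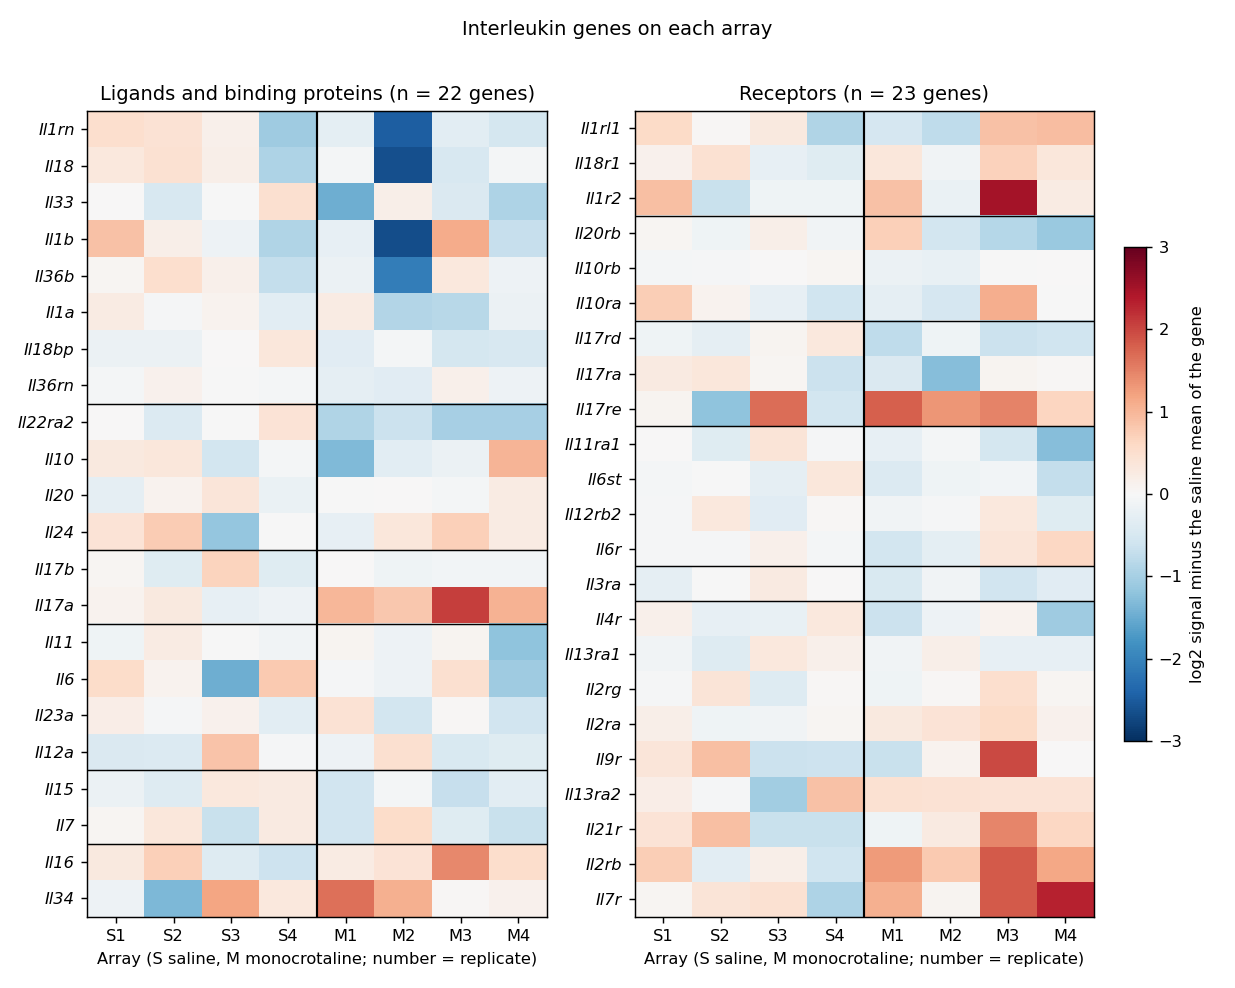
Scaled log2 signal of the 45 tested genes on each array minus the gene's saline mean, with saline arrays S1 to S4 and monocrotaline arrays M1 to M4 in columns and genes in rows by family. Blue to red runs from -3 to 3 log2 units, and array M2 is low for Il1b, Il1rn, Il18 and Il36b while M3 and M4 are high for Il7r.

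The median log2 fold change was -0.12 over the 45 genes, -0.23 over the ligands and 0.08 over the receptors, beside -0.03 over all genes tested. Negative log2 fold changes were found in 17 of 22 ligands (77.3%) and in 10 of 23 receptors (43.5%), beside 53.9% of all genes. With normexp background correction the receptors' median became -0.03 with 14 of 23 negative, and with the deposited values it became -0.01 with 12 negative, so their direction as a group was not settled. The 95% confidence interval of the log2 fold change excluded a 2-fold difference in either direction for 19 of the 45 genes (42.2%), against 72.2% of all genes. For the others these arrays leave room for such a difference, a 2-fold rise in 13 genes and a 2-fold fall in 14. Absence from the called genes therefore does not show that a gene was the same in both groups.

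**Figure D2:**
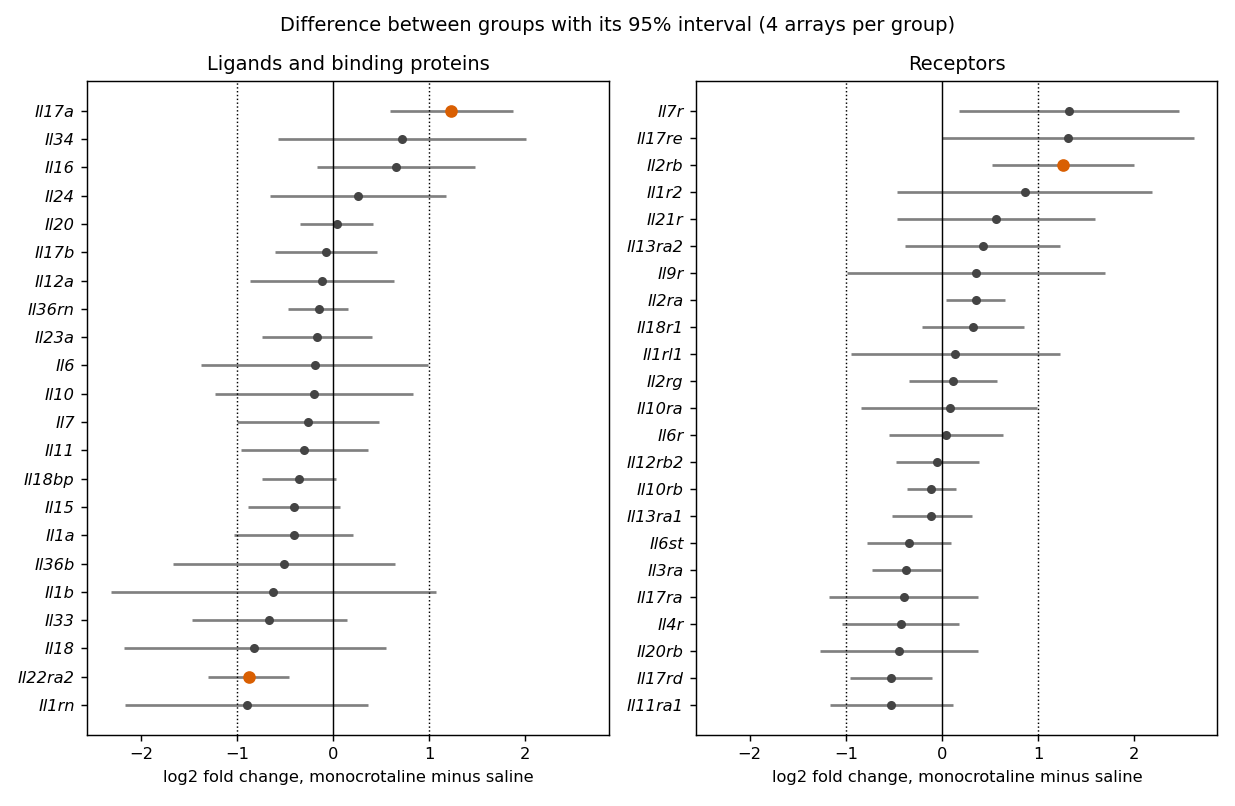
Log2 fold change of monocrotaline over saline for the 45 tested genes, with 95% confidence intervals from limma and dotted lines at -1 and 1. Orange points mark Il17a, Il22ra2 and Il2rb, the genes whose 4 saline and 4 monocrotaline values do not overlap.

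Among the ligands, the IL-1 family carries the classical alarm cytokines of damaged tissue. The inhibitors Il1rn and Il36rn and the binding protein Il18bp were counted with them here. The tested genes of this mixed group all had lower means after monocrotaline, none of them called. The log2 fold change was negative in 8 of 8 tested genes of 11 in the group, with a median of -0.57. Leaving out monocrotaline replicate 2 brought this to 6 of 8 with a median of -0.22. Il33, the nuclear alarmin of endothelium and epithelium, read 3.79, 3.30, 3.78 and 4.27 on saline arrays 1 to 4 and 2.33, 3.95, 3.35 and 2.85 on monocrotaline arrays 1 to 4. Its means, 3.79 ± 0.40 (SD, n = 4) and 3.12 ± 0.69 (SD, n = 4), differed by -0.67 ± 0.35 (adjusted p = 0.431), and the groups overlapped, since monocrotaline replicates 2 and 3 lay within the saline range. Leaving out 1 array at a time moved the log2 fold change of Il33 from -0.40 (adjusted p = 0.609, without monocrotaline replicate 1) to -0.94 (adjusted p = 0.189, without monocrotaline replicate 2).

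Il1rn, the receptor antagonist that blocks IL-1, read 2.62, 2.55, 2.29 and 1.05 after saline and 1.84, -0.35, 1.82 and 1.59 after monocrotaline. The lowest values were those of monocrotaline replicate 2 and saline replicate 4, and the log2 fold change was -0.90 ± 0.55 (adjusted p = 0.499). Il18, made as a precursor and cut by caspase-1, read 2.90, 3.05, 2.76 and 1.67 after saline and 2.53, -0.05, 2.11 and 2.53 after monocrotaline, a log2 fold change of -0.82 ± 0.60 (adjusted p = 0.581). The pattern resembled that of Il1rn in that monocrotaline replicate 2 stood lowest and saline replicate 4 next. Il1b, the main IL-1 of monocytes and macrophages, read 3.54, 2.82, 2.51 and 1.74 after saline and 2.40, 0.00, 3.77 and 1.97 after monocrotaline, with the highest and the lowest value both in the monocrotaline group. Its log2 fold change was -0.62 ± 0.74 (adjusted p = 0.757), and without monocrotaline replicate 2 it was 0.06. Without the same array the log2 fold changes of Il1rn and Il18 were -0.38 and -0.20.

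Il1a, the membrane-bound alarmin, read 2.23, 1.95, 2.10 and 1.67 after saline and 2.24, 1.10, 1.16 and 1.82 after monocrotaline, overlapping values that gave -0.41 ± 0.27 (adjusted p = 0.538). A second Il1a probe gave -0.40 ± 0.29. The epithelial and myeloid cytokine Il36b gave -0.51 ± 0.51 (adjusted p = 0.697), again lowest on monocrotaline replicate 2 at -5.17. The inhibitors Il18bp, which traps IL-18, and Il36rn, which blocks the IL-36 receptor, gave -0.35 ± 0.17 (adjusted p = 0.390) and -0.15 ± 0.14 (adjusted p = 0.669).

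Monocyte and macrophage markers were set beside these genes array by array. The mean log2 level of the 13 tested markers, relative to the saline mean, was 0.13, 0.16, 0.18 and -0.48 on saline arrays 1 to 4 and 0.30, -0.78, 0.49 and 1.2 on monocrotaline arrays 1 to 4. Monocrotaline replicate 2 and saline replicate 4 were the lowest arrays for the markers as for Il1rn, Il18, Il1b and Il36b. Il1a and Il36rn were also lowest on monocrotaline replicate 2, but with another monocrotaline array next. Il33 and Il18bp did not follow the markers: Il33 was highest on saline replicate 4 and next highest on monocrotaline replicate 2, and Il18bp was highest on saline replicate 4. Monocrotaline replicate 4, the highest array for the markers, was the highest for none of the 8 genes. Between the groups, 0 of the 13 markers were called, with a median of 0.23, 8 positive and 5 negative. Their summed signal ran from 131 to 219 after saline and from 89.9 to 166 after monocrotaline, in units of each array's 75th percentile. The brightest probe, Lyz2, at means of 6.97 and 6.63 (-0.34 ± 0.23), made up most of that sum. The sum therefore does not give the level of the 13 as a set. Ccr2 was above background on 2 saline and 4 monocrotaline arrays while the other 12 were above it on all arrays. The part of these cells in the IL-1 family values was not tested.

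**Figure D3:**
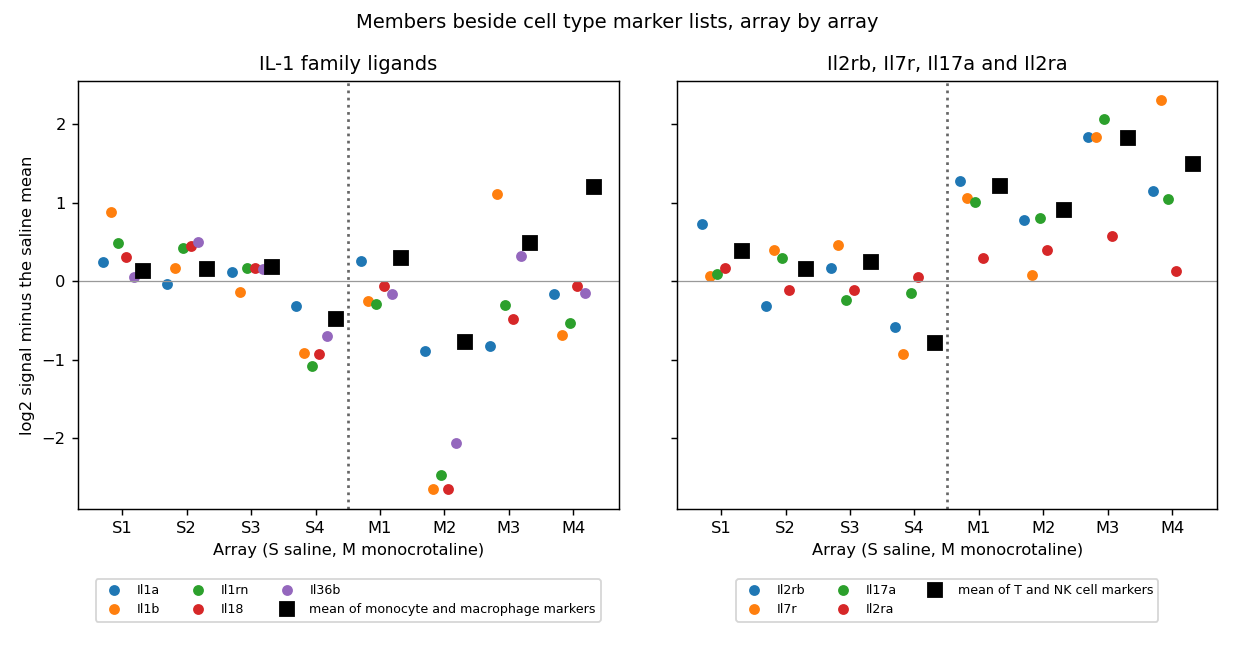
Log2 level relative to the saline mean on each of the 8 arrays, left for Il1a, Il1b, Il1rn, Il18 and Il36b with the mean of 13 monocyte and macrophage markers, right for Il2rb, Il7r, Il17a and Il2ra with the mean of 20 T and NK cell markers. On the left array M2 holds the lowest marker mean (-0.78), and on the right all 4 monocrotaline marker means (0.91 to 1.82) lie above the highest saline one (0.39).

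Among the other ligands the groups did not overlap for Il17a, the cytokine of Th17 and γδ T cells that draws neutrophils through its action on epithelium and endothelium. Il17a read -5.73, -5.53, -6.07 and -5.98 after saline and -4.82, -5.02, -3.76 and -4.78 after monocrotaline. All 4 monocrotaline values were above all 4 saline values, with monocrotaline replicate 3 the highest. The probe was above background on 4 monocrotaline arrays but on only 2 saline arrays, so it met the filter through the group where it was higher, and its saline mean and fold rest in part on values not well above background. The means of -5.83 ± 0.24 (SD, n = 4) and -4.59 ± 0.57 (SD, n = 4) gave a log2 fold change of 1.23 ± 0.28, or 2.35-fold, which missed the threshold (limma, adjusted p = 0.0863). Leaving out monocrotaline replicate 3 lowered the log2 fold change to 0.95 with an adjusted p of 0.0485, and with normexp background correction it was 0.37 (adjusted p = 0.473). The other tested IL-17 ligand, Il17b, gave -0.07 ± 0.23 (adjusted p = 0.921).

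In the IL-10 family the soluble receptor Il22ra2, a decoy that holds IL-22 away from epithelial cells, had the lowest adjusted p of the 45 genes. It read -2.62, -3.05, -2.64 and -2.23 after saline and -3.54, -3.29, -3.64 and -3.62 after monocrotaline. Every monocrotaline value was below every saline value, and the monocrotaline rats lay closer together (SD 0.16, n = 4) than the saline rats (SD 0.34, n = 4). The log2 fold change was -0.88 ± 0.18, a 1.84-fold lower mean, and missed the threshold (limma, adjusted p = 0.0683). It passed with normexp background correction (-0.71, adjusted p = 0.0485) and with array weights (-0.90, adjusted p = 0.0297). Leaving out 1 array at a time, it never passed. The log2 fold change then ran from -0.74 (adjusted p = 0.132, without saline replicate 4) to -1.02 (adjusted p = 0.0511, without saline replicate 2). Il10, the anti-inflammatory member, gave -0.20 ± 0.45 (adjusted p = 0.879), with single values from -4.74 to -2.41 in the monocrotaline group around the saline range of -3.97 to -3.09. Il24 and Il20 gave 0.26 ± 0.40 and 0.04 ± 0.17.

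**Figure D4:**
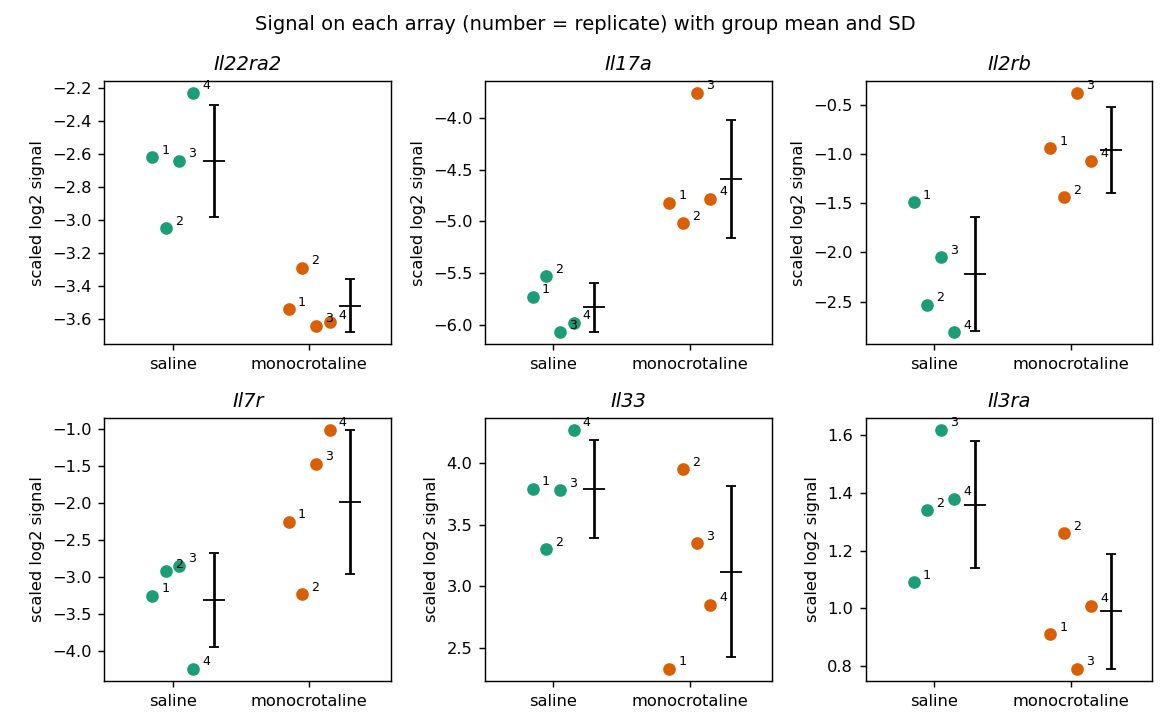
Scaled log2 signal of Il22ra2, Il17a, Il2rb, Il7r, Il33 and Il3ra on each array, with points for the 4 saline and 4 monocrotaline rats and the mean and SD of each group. The groups do not overlap for Il22ra2, Il17a and Il2rb, and they overlap for Il7r, Il33 and Il3ra.

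Il6, the acute-phase cytokine often measured in pulmonary hypertension, read -3.76, -4.20, -5.77 and -3.53 after saline and -4.35, -4.46, -3.84 and -5.37 after monocrotaline. The monocrotaline values all lay within the saline range, and its log2 fold change was -0.19 ± 0.52 (adjusted p = 0.903) with a 95% interval of -1.37 to 0.99. Relatives that share subunits with it or with IL-12 were Il11 at -0.30 ± 0.29, Il23a at -0.17 ± 0.25 and Il12a at -0.12 ± 0.33, the last above background on 2 saline and 4 monocrotaline arrays. Of the ligands of common gamma chain receptors only Il15, which maintains NK and memory T cells, and Il7, the lymphocyte survival factor, could be tested. They gave -0.41 ± 0.21 (adjusted p = 0.419) and -0.26 ± 0.32 (adjusted p = 0.766). Il16, a chemoattractant for CD4+ cells, gave 0.65 ± 0.36 (adjusted p = 0.451) and was highest on monocrotaline replicate 3 at 3.30. Il34, a second ligand of the receptor for macrophage colony-stimulating factor, gave 0.72 ± 0.56 (adjusted p = 0.609), with saline values spread from -0.75 to 1.78.

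Among the receptors, the chains that bind common gamma chain cytokines and IL-13 had a median log2 fold change of 0.35, positive in 7 of 9 genes, all 9 tested and none called. These counts include Il2ra, which met the filter through the monocrotaline arrays. Under a filter requiring all 8 arrays, 5 of 7 genes were positive, with a median of 0.43. With normexp background correction 4 of the 9 were positive and the median was 0. Without monocrotaline replicate 3, 5 were positive. Il2rb, the signalling chain that IL-2 and IL-15 share on T and NK cells, read -1.49, -2.53, -2.05 and -2.81 after saline and -0.94, -1.44, -0.38 and -1.07 after monocrotaline. The lowest monocrotaline value lay just above the highest saline value, so the groups did not overlap. The log2 fold change was 1.26 ± 0.32, or 2.40-fold (limma, adjusted p = 0.133).

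Il7r, the IL-7 receptor chain of T cells and their precursors, read -3.25, -2.92, -2.85 and -4.24 after saline and -2.25, -3.23, -1.47 and -1.01 after monocrotaline. Monocrotaline replicate 2 lay among the saline values and replicates 3 and 4 were well above them. The log2 fold change was 1.32 ± 0.50 (adjusted p = 0.302), and a second probe gave 1.29 ± 0.48. Il2ra, the high-affinity chain CD25 of activated and regulatory T cells, read -6.02, -6.31, -6.30 and -6.14 after saline and -5.90, -5.79, -5.62 and -6.06 after monocrotaline, a log2 fold change of 0.35 ± 0.14 (adjusted p = 0.314). Like Il17a it was above background on 2 saline and 4 monocrotaline arrays, with the same limit on its difference. With normexp background correction it was -0.03. The common gamma chain itself, Il2rg, gave 0.12 ± 0.20 (adjusted p = 0.841) with a 95% interval of -0.34 to 0.57, which excludes a 2-fold difference. Il21r gave 0.56 ± 0.45 (adjusted p = 0.621), and Il4r, which serves IL-4 and IL-13, gave -0.43 ± 0.27 (adjusted p = 0.504), with -0.14 ± 0.25 from a second probe. The IL-13 binding chains Il13ra1 and Il13ra2, the latter a decoy, gave -0.11 ± 0.18 (adjusted p = 0.834) and 0.43 ± 0.35 (adjusted p = 0.630). Il9r, the IL-9 receptor chain, gave 0.35 ± 0.59 (adjusted p = 0.833), above background on 3 arrays of each group.

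T and NK cell markers were set beside these genes and Il17a. Their mean log2 level relative to the saline mean was 0.39, 0.15, 0.25 and -0.79 on the saline arrays and 1.22, 0.91, 1.82 and 1.5 on the monocrotaline arrays. The summed signal of the 20 tested markers ran from 4.56 to 11.2 after saline and from 19.8 to 35.5 after monocrotaline, in units of each array's 75th percentile. The markers called higher by limma were Cd247 and Zap70, parts of T cell receptor signalling, at 2.11 ± 0.34 (adjusted p = 0.0261) and 1.66 ± 0.28 (adjusted p = 0.0304), and Cd8b, a chain of the CD8 co-receptor, at 1.67 ± 0.30 (adjusted p = 0.0408). In 15 of the 20 (75%) the groups did not overlap, each higher after monocrotaline, beside 4.56% of all genes. Genes called higher made up 1.37% of all genes. Ncr1, an NK cell receptor, was above background on 1 saline and 3 monocrotaline arrays. Saline replicate 4 was the lowest array for the markers and for Il2rb and Il7r. The match was not array by array for every gene. Il7r on monocrotaline replicate 2 was below saline replicates 2 and 3, Il2ra on monocrotaline replicate 4 was below saline replicate 1, and the lowest arrays were saline replicate 3 for Il17a and saline replicate 2 for Il2ra. The part of T and NK cells in the values of Il17a, Il2rb, Il7r and Il2ra was not tested.

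The stretches of 250 bases before the transcription start are shown for Il17a, Il7r and Il2ra, because these are the genes with higher means at an unadjusted p under 0.05 for which RefSeq (build GRCr8) gave a promoter, while Il2rb was not in the table. They are printed 5′ to 3′ on the gene's own strand, and capitals mark matches to a motif searched on both strands, TGTGGT for RUNX or TATAAA for the TATA box, with no overlap between them.
Il17a, chr9:30640594-30640843, + strand: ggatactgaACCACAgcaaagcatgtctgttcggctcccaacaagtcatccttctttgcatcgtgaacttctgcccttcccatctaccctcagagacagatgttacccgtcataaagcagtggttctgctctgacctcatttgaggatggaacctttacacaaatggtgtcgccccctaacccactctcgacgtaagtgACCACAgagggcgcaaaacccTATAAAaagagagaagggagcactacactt
Il7r, chr2:60204918-60205167, - strand: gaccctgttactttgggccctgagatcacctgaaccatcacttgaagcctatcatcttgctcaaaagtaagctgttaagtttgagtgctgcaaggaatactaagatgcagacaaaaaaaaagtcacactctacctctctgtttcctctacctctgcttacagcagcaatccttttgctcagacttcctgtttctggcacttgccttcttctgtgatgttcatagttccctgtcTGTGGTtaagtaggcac
Il2ra, chr17:71808476-71808725, - strand: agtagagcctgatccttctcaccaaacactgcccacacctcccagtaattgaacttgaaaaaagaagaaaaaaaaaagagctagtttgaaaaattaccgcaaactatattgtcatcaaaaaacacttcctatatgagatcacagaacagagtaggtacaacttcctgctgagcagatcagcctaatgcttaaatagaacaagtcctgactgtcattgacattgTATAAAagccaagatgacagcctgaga
RUNX proteins are transcription factors of blood cells. The Il17a stretch holds the RUNX motif on the opposite strand at 241 to 236 and again at 51 to 46 bases before the start, and TATAAA at 30 to 25 bases. Il7r has the RUNX motif at 17 to 12 bases before the start, and Il2ra has TATAAA at 27 to 22 bases. The STAT motif TTCNNNGAA was not among these letters. Over all 33469 promoters, 14.5% held the RUNX motif, 12.9% TATAAA and 7.67% the STAT motif, beside 16.1%, 19.6% and 8.93% of the 56 promoters of 53 interleukin and receptor genes. These are matches of letters only.

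In the remaining receptor families no gene was called and the values were mixed. Il17re, the chain through which epithelium senses IL-17C, read -2.74, -4.04, -1.14 and -3.37 after saline and -1.03, -1.50, -1.34 and -2.18 after monocrotaline, a log2 fold change of 1.31 ± 0.57 (adjusted p = 0.358). Saline replicate 3 lay inside the monocrotaline range and the other saline values below it. Il17ra, the chain that most IL-17 receptors share, gave -0.40 ± 0.34 (adjusted p = 0.647). Il17rd, a chain that also restrains growth factor signalling, gave -0.53 ± 0.19 (adjusted p = 0.267), the groups overlapping at 1 rat, monocrotaline replicate 2 at -4.38.

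Il3ra, the IL-3 receptor chain, read 1.09, 1.34, 1.62 and 1.38 after saline and 0.91, 1.26, 0.79 and 1.01 after monocrotaline. Only monocrotaline replicate 2 reached into the saline range, and the log2 fold change was -0.37 ± 0.16 (adjusted p = 0.351), with -0.47 ± 0.16 from a second probe. Il5ra, which pairs with the same beta chain, was not above background on any array. Il6st, the gp130 chain of the IL-6 family, gave -0.34 ± 0.19 (adjusted p = 0.453), and Il11ra1 gave -0.53 ± 0.28 (adjusted p = 0.435). Il6r, which binds IL-6 itself, gave 0.04 ± 0.26 (adjusted p = 0.964) with a 95% interval of -0.55 to 0.63. In the IL-10 group Il10rb gave -0.11 ± 0.11 (adjusted p = 0.715, interval -0.36 to 0.15) and Il10ra 0.08 ± 0.40 (adjusted p = 0.956), while Il20rb, a chain for IL-20 and IL-24, gave -0.45 ± 0.36 (adjusted p = 0.620). Il12rb2, the signalling chain for IL-12, gave -0.05 ± 0.19 (adjusted p = 0.939).

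For the receptors of the IL-1 family the tested genes were Il1r2, a decoy for IL-1, Il18r1, the IL-18 binding chain, and Il1rl1, the IL-33 receptor ST2. They gave 0.86 ± 0.58 (adjusted p = 0.543), 0.32 ± 0.23 (adjusted p = 0.582) and 0.14 ± 0.48 (adjusted p = 0.927). Il1r2 was highest on monocrotaline replicate 3, at 0.48 against a highest saline value of -1.12. A probe for another Il1rl1 transcript gave 0.01 ± 0.34.

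The genes that carry interleukin signals inside the cell were taken from 5 lists, and 0 of their tested members were called. The tested numbers and median log2 fold changes were 14 and -0.04 for shared subunits and related cytokines, 20 and -0.02 for JAK, STAT and SOCS genes, 15 and -0.03 for IL-1 and IL-17 receptor signalling, 7 and 0.06 for the inflammasome, and 11 and -0.08 for cytokine RNA decay and lymphocyte transcription. At an unadjusted p under 0.05 there were 1 higher and 1 lower in the first list, 1 and 2 in the second, 0 and 2 in the third, 0 and 0 in the fourth and 0 and 1 in the fifth. That was 14.3%, 15%, 13.3%, 0% and 9.09% of the tested genes of each list, beside 13.9% of all genes. The medians sat near the -0.03 of all genes. Traf3ip2, the adaptor Act1 that IL-17 receptors recruit, had the highest mean signal in its list. It read 3.41, 3.46, 3.39 and 3.44 after saline and 2.94, 3.24, 2.95 and 2.94 after monocrotaline, with no overlap, at -0.41 ± 0.12 (adjusted p = 0.168). Ptpn6, a phosphatase that dampens cytokine signals, gave -0.08 ± 0.34, Tbx21, the T-bet factor of Th1 and NK cells, -0.13 ± 0.30, Crlf2, a receptor chain for TSLP, -0.05 ± 0.18, and Pycard, the inflammasome adaptor ASC, 0.48 ± 0.37.

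Picked after their values were seen, Zfp36, which speeds the decay of cytokine transcripts, gave -0.63 ± 0.17 (adjusted p = 0.148) with no overlap of the groups, and Socs3, the feedback inhibitor of gp130 signalling, gave -0.79 ± 0.25 (adjusted p = 0.214). Without monocrotaline replicate 2 Socs3 passed, at -1.01 (adjusted p = 0.0494). Lifr, which pairs with gp130, gave -0.81 ± 0.29 (adjusted p = 0.283). Stat4, the factor activated by IL-12 in T and NK cells, gave 1.07 ± 0.42 (adjusted p = 0.317). Stat4 and the T and NK cell markers were highest on monocrotaline replicates 3 and 4. On monocrotaline replicates 1 and 2, however, Stat4 (-2.28 and -2.03) was below saline replicate 2 (-1.92). The part of T and NK cells in its values was not tested.

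Markers of other cells that the beads could have carried along were measured as well. The median log2 fold changes were 0.45 over 7 B and plasma cell genes, 0.70 over 6 neutrophil genes, 0.31 over 10 mast cell, basophil and eosinophil genes, 0.33 over 7 platelet genes, 0.42 over 9 alveolar epithelial genes and 0.88 over 13 fibroblast and smooth muscle genes, with 0 called. Single arrays decided several of these medians. Without monocrotaline replicate 1 the platelet median was -0.14, without saline replicate 2 the alveolar and fibroblast medians were -0.03 and 0.36, and without monocrotaline replicate 3 the neutrophil, B cell and mast cell medians were 0.11, 0.14 and 0.08. In the neutrophil list 5 of 6 genes were positive, while Fpr1 was lower at -1.26 ± 0.29, with no overlap of the groups. Cxcr2 in that list and Selp in the platelet list were above background on 1 saline and 3 monocrotaline arrays. Both met the filter through the latter. Under a filter requiring all 8 arrays the neutrophil and platelet medians were 0.53 and 0.35. In the mast cell list 8 of 10 were positive, while Kit and Gata2 gave -0.89 ± 0.25 and -1.02 ± 0.28. Of 7 airway secretory and ciliated genes, whose median was 1.93, 6 were positive, while Tppp3 gave -0.54 ± 0.26. Clca1 was called at 3.35 ± 0.62 (limma, adjusted p = 0.0426). Clca1 and Foxj1 were above background on only 2 saline but 4 monocrotaline arrays and met the filter through the latter. The list was highest on monocrotaline replicates 1 and 3, and without those 2 arrays its median was 0.46. In that comparison, added after the data were seen, 51 of all 19137 genes were called higher and 1 lower. None of the 45 interleukin and receptor genes was called either, and with so few calls over all genes little else could come out. The log2 fold changes were then 0.93 for Il17a, 0.96 for Il2rb, 1.19 for Il7r and -0.81 for Il22ra2.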

How the data were processed

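Total RNA of CD31-selected lung cells from 8 rats was read on 1-colour arrays, 1 per rat, with groups taken from the labels. Per the file headers, Agilent Feature Extraction 10.7.3.1 made the processed signal, an intensity that was background-subtracted and detrended within each array. Per the file headers, the flags are other values, 0 or 1 for each spot. The deposited log2 values, quantile-normalized and put through a second log2 as their match to the scanner files shows, were an alternative only. The submitters' processing notes name limma 3.6.9.

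Outlier and control spots were left out and the spots of a probe averaged. Log2 signals were scaled to each array's 75th percentile. Probes were named by accession through RefSeq (18006 probes to 15159 symbols, 12361 unmatched). Unmatched probes stayed in under their accession. A gene, taken as its probe with the highest mean, was tested when well above background on at least 4 of 8 arrays. The comparison used R 4.3.3 with limma 3.58.1 (data.table, version 1.17.8, read the files), with Benjamini-Hochberg adjustment over 19137 genes, and the steps were tested on simulated data. Members and lists were chosen with earlier results of these data known. Genes described in full were those without overlap, the 6 largest differences, the 5 ligands and 5 receptors with the highest mean signal, and fixed genes, and from each pathway list the gene with the highest mean. The other tested members, named with shorter values, and Zfp36, Socs3, Lifr and Stat4 were exceptions. Alternatives changed background correction, scaling, filter, probe choice, fit and arrays.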

Additional observations from a re-analysis of the deposited data

Results flagged for a closer look

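In groups of 4 arrays, a single array stood apart from the other 3 by Dixon's criterion in 4 of 60 groups examined, and about 3 would be met by chance at 1 in 20. Il1rn on monocrotaline replicate 2 read -0.35, with the nearest array at 1.59. Il18 on the same array read -0.05, with the nearest at 2.11. Il6r on saline replicate 3 read -0.93, against -1.11 for the nearest. Il12b on saline replicate 2 read -6.70, against -7.43 for the nearest, although its probe was not well above background on any array.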

How the results depend on the processing

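With 4 rats a group, small differences are out of reach, and levels near background, such as those of Il17a, Il2ra and Il12a, depend on the background correction; these 3 genes were not tested under a filter requiring all 8 arrays. Over 20 alternatives, 1 of them added after seeing the data (without monocrotaline replicates 1 and 3), 28 named members gave 557 values, of which 527 kept direction and side of the threshold, 4 passed it and 26 changed sign, in 9 members. The number of ligands called higher became 1 (Il17a) with array weights (1.16, adjusted p = 0.048) and without monocrotaline replicate 3. The number called lower became 1 (Il22ra2) with normexp and with array weights. The number of pathway genes called lower became 1 (Socs3) without monocrotaline replicate 2. Reversed values were, with normexp, -0.04 for Il1rl1 and -0.03 for Il2ra; with median scaling, 0 for Il6r; with the deposited table, -0.02 for Il6r, -0.01 for Il10ra, 0.04 for Ptpn6 and 0.02 for Crlf2; with array weights, 0.05 for Il12a, -0.20 for Il1rl1, -0.30 for Il10ra and 0.07 for Tbx21. Without monocrotaline replicates 1 and 3 they were 0.34 for Il10, 0.06 for Il12a and -0.26 for Il10ra. Leaving out single arrays crossed 0 for Il1b (-1.20 to 0.06), Il2rg (-0.01 to 0.25), Il6 (-0.67 to 0.10), Il10 (-0.60 to 0.17), Il12a (-0.32 to 0.17), Il1rl1 (-0.16 to 0.44), Il6r (-0.16 to 0.24), Il10ra (-0.26 to 0.32), Ptpn6 (-0.31 to 0.14), Tbx21 (-0.30 to 0.10) and Crlf2 (-0.13 to 0.09). The cause was not tested. Over all genes, calls higher and lower became 11 and 0 without saline replicate 1 and 273 and 93 without monocrotaline replicate 2.

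Rats with the same replicate number did not deviate together (correlations -0.01, -0.23, -0.33 and -0.20), so the numbers were not taken as pairs. With the replicate number (equally, the slide column) as a block, 0 members and 0 of all genes were called, and the adjusted p was 0.273 for Il22ra2, 0.274 for Il17a and 0.168 for Il2rb.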
